A study of Homo sapiens with 8 samples.

Results

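The genes described here are 39 genes of homologous recombination, the Fanconi anaemia pathway and the replication checkpoint, together with the mismatch recognition gene MSH6. They were taken by gene symbol from the series' table of 29991 entries, by a rule that uses no measured value, although the list was drawn up with earlier results of these data known. Each of the 39 symbols appeared once, and each was above the lowest value the table allows in all 8 libraries, so that all 39 were among the 12315 entries tested. The cells were MCF10A, an immortalised, non-tumour human breast epithelial line, so that all groups come from a single line. They were transfected with a control siRNA (siControl), siRNAs against LATS1 and LATS2, kinases of the Hippo pathway (siLATS1/2), an siRNA against the tumour suppressor p53 (sip53), or all of these targeting siRNAs together (siLATS1/2/p53). Polyadenylated RNA was sequenced in 2 libraries per group, 1 from each of 2 independent batches of cells, and the question put to the data was how the loss of the LATS kinases and of p53, alone and together, changed these transcripts. The time after transfection is not given in the sources used here.

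Homologous recombination repairs a DNA break by copying the sister chromatid. The MRE11, RAD50 and NBN complex senses and trims the break with RBBP8 (also called CtIP), BRCA1 with its partner BARD1 and PALB2 brings in BRCA2, which loads the recombinase on the single strand, and BLM with RMI1 and RMI2 dissolves the joined intermediates. The Fanconi pathway deals with crosslinks between DNA strands: a core complex adds ubiquitin to the FANCD2 and FANCI pair, which then recruits nucleases. The kinase ATR, with ATRIP and TOPBP1, answers stalled replication forks through claspin (CLSPN) and the kinase CHEK1, and WEE1 holds CDK1 inactive. Most of these genes are transcribed chiefly as cells enter and pass through S phase, and p53 is known to repress many cell cycle genes through its target p21 and the DREAM repressor complex, which binds E2F and CHR elements in promoters.

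The deposited values are log2 expression levels with a floor of 5, so that 1 unit is a doubling. They are not stated to be per length, and levels are therefore compared between groups and not between genes. LATS1 fell by 1.58 and LATS2 by 1.39 on the log2 scale with siLATS1/2, and CDKN1A, which encodes p21, fell by 2.62 with sip53. All 9 breast epithelial markers were above the floor in every library, while 5 of 7 fibroblast markers and 7 of 8 blood and endothelial markers were at the floor in all 8. The exceptions were COL1A1 and CD68, above the floor in 8 libraries, and the fibroblast gene DCN, above it in 6 and higher in batch 1 than in batch 2 of each group. Read depth, which no source states, was estimated from the steps between low values at 11.3 to 37.1 M reads, lowest in siLATS1/2/p53 batch 1 and siControl batch 1 (12.1 M). Same-numbered libraries deviated together, with correlations of 0.54 to 0.72 across 11356 entries, so each test was also run with batch as a term in the fit. Passing only with the batch term means passing in that fit and not in the fit without it, both on the deposited values. In bulk RNA, fewer cells expressing a gene and less RNA per cell cannot be told apart.

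Of the 39 genes, 34 matched a RefSeq promoter table (GRCh38.p14, windows of 250 bases before to 50 after a start site, with more than 1 window for some genes). The elements below were searched on both strands. E2F-type elements were the spellings TTTCCCGC, TTTCGCGC, TTTGCCGC and TTTGGCGC, CHR-type elements were TTTGAA and TTCGAA, and the CCAAT box was searched as CCAAT. No spelling contains another. An E2F-type spelling was found in 9 of the 34 genes (26.5%), namely XRCC2, RMI1, FANCA, FANCC, FANCD2, TOPBP1, CLSPN, TIPIN and MSH6, against 3.99% of the 27305 genes in the table. CCAAT was found in 20 of 34 (58.8%), against 39.7%. CHR-type spellings were found in 3, ATM, FANCC and BRIP1 (8.82%), against 19.5%. FANCC was the only gene of the 34 to hold both an E2F-type and a CHR-type spelling. A match of letters is a description and shows no binding.

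The promoters printed below are those of FANCC, shown because it holds both kinds of element, and of CLSPN, RMI1 and FANCD2, chosen after the matches were known as the genes with an E2F-type spelling that had the largest differences between siLATS1/2/p53 and siLATS1/2. Each is written 5′ to 3′ on the strand of its gene, with E2F-type and CHR-type matches in capitals and CCAAT left in lower case, and coordinates refer to GRCh38.p14, not to the build of the expression data.
CLSPN, chr1:35769929-35770228, minus strand: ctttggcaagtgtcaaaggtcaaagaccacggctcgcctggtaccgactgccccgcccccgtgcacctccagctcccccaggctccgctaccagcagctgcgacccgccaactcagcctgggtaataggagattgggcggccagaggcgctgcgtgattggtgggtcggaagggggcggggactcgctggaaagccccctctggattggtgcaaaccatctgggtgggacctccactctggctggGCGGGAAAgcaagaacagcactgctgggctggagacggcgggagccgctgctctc
RMI1, chr9:83980555-83980854, plus strand: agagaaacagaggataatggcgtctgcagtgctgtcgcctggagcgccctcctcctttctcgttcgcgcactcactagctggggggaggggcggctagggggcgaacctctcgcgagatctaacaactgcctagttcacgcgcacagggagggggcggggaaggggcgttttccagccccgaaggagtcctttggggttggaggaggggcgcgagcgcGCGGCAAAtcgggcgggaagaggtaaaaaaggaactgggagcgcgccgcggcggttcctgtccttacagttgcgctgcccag
FANCD2, chr3:10026187-10026486, plus strand: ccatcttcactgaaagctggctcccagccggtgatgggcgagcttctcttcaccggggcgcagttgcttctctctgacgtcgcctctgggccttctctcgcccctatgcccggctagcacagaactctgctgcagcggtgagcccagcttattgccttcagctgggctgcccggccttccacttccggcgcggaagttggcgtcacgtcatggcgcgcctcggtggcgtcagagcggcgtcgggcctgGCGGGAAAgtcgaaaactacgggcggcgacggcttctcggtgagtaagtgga
FANCC, chr9:95317660-95317959, minus strand: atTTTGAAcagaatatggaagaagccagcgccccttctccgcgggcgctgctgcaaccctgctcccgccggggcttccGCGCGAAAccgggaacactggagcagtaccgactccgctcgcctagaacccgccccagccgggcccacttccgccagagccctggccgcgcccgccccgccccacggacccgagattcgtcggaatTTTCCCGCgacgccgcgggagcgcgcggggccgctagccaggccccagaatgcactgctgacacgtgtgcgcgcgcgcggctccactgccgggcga

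The spellings in CLSPN and FANCD2 span the start site, from 5 bases before it to the third base after in CLSPN and from 2 bases before it to the sixth base after in FANCD2. The one in RMI1 lies 25 to 32 bases before the start site. In FANCC the E2F-type spellings lie 39 to 46 and 165 to 172 bases before it and the CHR-type spelling 243 to 248 bases before it. In the comparison of siLATS1/2/p53 with siLATS1/2 described below, the median log2 difference was 0.52 over the 9 genes with an E2F-type spelling and 0.47 over the 25 without one. It was 0.41 over the 3 genes with a CHR-type spelling and 0.56 over the 31 without one. The medians with and without an E2F-type spelling were −0.29 and −0.36 in siLATS1/2 against siControl, and 0.43 and 0.30 in sip53 against siControl.

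Most of the 39 genes had their lowest values with the LATS1/2 siRNAs and their highest with the p53 siRNA alone, although only 8 passed the test in each comparison with siControl. The siLATS1/2 group had the lowest mean of the 4 groups for 38 of the 39 genes, where it did so for 45.6% of all tested entries. Both siLATS1/2 libraries lay below the other 6 libraries for 32 genes, against 21.5% of all tested entries. The sip53 group had the highest mean for 35 genes, against 29.8% of entries, and both of its libraries lay above the other 6 for 21 genes, against 9.56%. The 4 genes highest in siLATS1/2/p53 were FANCG, WEE1, PALB2 and RAD51C, and only for FANCG and WEE1 did both of those libraries lie above the other 6. ATM was the one gene whose lowest mean was in siLATS1/2/p53.

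**Figure D1:**
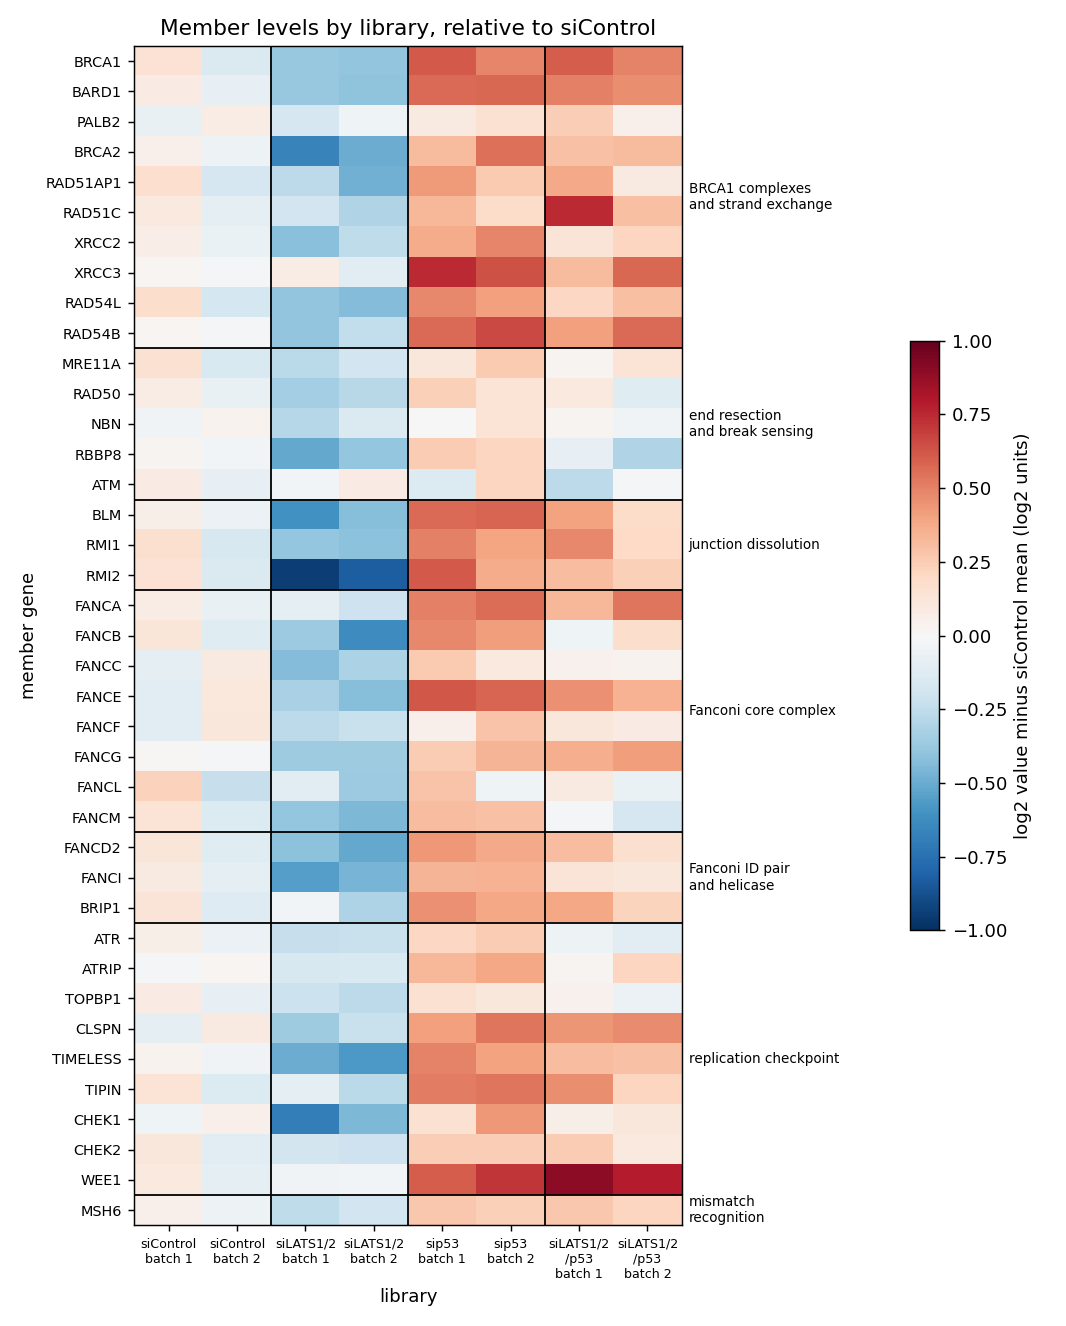
Each row is 1 of the 39 genes, ordered by role, and each column 1 of the 8 libraries; colour gives the log2 value minus the gene's mean over the 2 siControl libraries, in log2 units. The 2 siLATS1/2 columns are blue in nearly every row, the sip53 columns red, and the siLATS1/2/p53 columns mostly red with pale rows in the resection group.

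With siLATS1/2, 8 genes fell against siControl and none rose. RMI2 fell by 0.88 ± 0.16 (SE, 2 libraries per group), BRCA2 by 0.58 ± 0.11, CHEK1 by 0.57 ± 0.13, TIMELESS by 0.53 ± 0.08, BLM by 0.52 ± 0.12 and FANCI by 0.51 ± 0.09 on the log2 scale, followed by FANCD2 and RBBP8. The 8 genes are 20.5% of the 39, beside 4.89% of all tested entries called lower (limma, Benjamini-Hochberg adjusted p below 0.05 over 12315 entries). With batch as a term 26 genes passed (66.7%, beside 21.4% of all entries). The median difference was −0.32 over the 39 genes and −0.07 over all tested entries, 38 of 39 were below 0, and 36 were below 0 in both batches, with medians of −0.37 in batch 1 and −0.25 in batch 2. Within siControl, 31 of the 39 were lower in batch 2 than in batch 1. The calls did not hold without siControl batch 1, siLATS1/2 batch 1 or siLATS1/2 batch 2, and held only in part without any other library. The share called over all entries fell in these fits too, and the median difference was −0.37 to −0.24. Rescaling the libraries by the median of ratios left 3 of the calls. All 3 were lower, a share near the 6.39% of all tested entries called in either direction. The share of entries called lower alone after rescaling was not computed. The median difference was then −0.24, with 36 of the 39 genes below 0.

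With sip53, 8 genes rose against siControl and none fell. XRCC3 rose by 0.69 ± 0.13, WEE1 by 0.66 ± 0.10, RAD54B by 0.62 ± 0.11, BLM by 0.57 ± 0.12, BARD1 by 0.57 ± 0.12 and BRCA1 by 0.55 ± 0.12, followed by FANCA and TIMELESS. These are again 20.5% of the genes, beside 1.76% of all tested entries called higher. With batch as a term 27 passed (69.2%, beside 16% of all entries). All 39 differences were above 0, with a median of 0.36 beside 0.06 over all entries, and 37 were above 0 in both batches. A difference of at least 1.5-fold was seen for 4 genes, and none reached 2-fold. The calls did not hold when any 1 of the 8 libraries was left out, including those of groups outside the comparison. The share called over all entries fell in these fits too, and the median difference was 0.28 to 0.44. Rescaling left 3 of the calls, beside 3.52% of all tested entries called in either direction.

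The comparisons with siControl share its 2 libraries and are therefore not independent of each other. With all siRNAs combined, 8 genes were higher than in siControl and none lower. WEE1 was higher by 0.84 ± 0.10, BRCA1 by 0.55 ± 0.12, RAD54B by 0.49 ± 0.11, BARD1 by 0.49 ± 0.12, CLSPN by 0.46 ± 0.10 and FANCA by 0.44 ± 0.10, followed by FANCG and TIMELESS. Here the 20.5% stands beside a background of 9.07% called higher, and with batch as a term 18 genes passed (46.2%, beside 25.5%). The median difference was 0.24, with 32 genes above 0 and 7 below, and the median over all entries was 0.08. Most of the calls did not hold when 1 library was left out, whichever of the 8 it was. The share called over all entries fell in these fits too, and the median difference was 0.15 to 0.30. Rescaling left 2 of the calls. Both were higher, a share below the 14.3% of all tested entries called in either direction. The share of entries called higher alone after rescaling was not computed. The median difference was then 0.16, with 29 genes above 0 and 10 below.

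The sip53 and siLATS1/2 groups, with the highest and lowest means for most of the genes, were not compared directly. Of the comparisons made, the widest gap was between siLATS1/2/p53 and siLATS1/2. This is the effect of adding the p53 siRNA to cells that received the LATS1/2 siRNAs. In this comparison 21 genes rose and none fell (53.8%, beside 11.3% of all tested entries called higher). RMI2 rose by 1.16 ± 0.16, BRCA1 by 0.94 ± 0.12, BRCA2 by 0.89 ± 0.11, BARD1 by 0.88 ± 0.12, WEE1 by 0.87 ± 0.10 and TIMELESS by 0.83 ± 0.08. RMI2 was the only gene past 2-fold in any comparison made (2.23-fold), and 19 genes were past 1.5-fold. With batch as a term 34 passed (87.2%, beside 33.8%), the 5 others being PALB2, ATM, FANCL, ATR and ATRIP. The median difference was 0.56 over the 39 genes and 0.15 over all tested entries, and 38 of the 39 were above 0 in both batches. Rescaling lowered every difference in this comparison by 0.16, after which the median was 0.41, with 37 genes above 0. After it 15 were called, beside 9.78% of all tested entries called in either direction. Most calls did not hold without siLATS1/2 batch 1, siLATS1/2 batch 2 or siLATS1/2/p53 batch 1, and the share called over all entries fell too. The median differences were then 0.61, 0.50 and 0.55. The calls numbered 0, beside 0% of all entries, when only the 4 libraries compared were fitted, which leaves few samples to estimate the spread. Without the 2 shallowest libraries (siControl batch 1 and siLATS1/2/p53 batch 1) the calls did not hold, among these genes or over all entries. The median difference was then 0.55, and 0.56 with batch as a term.

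**Figure D2:**
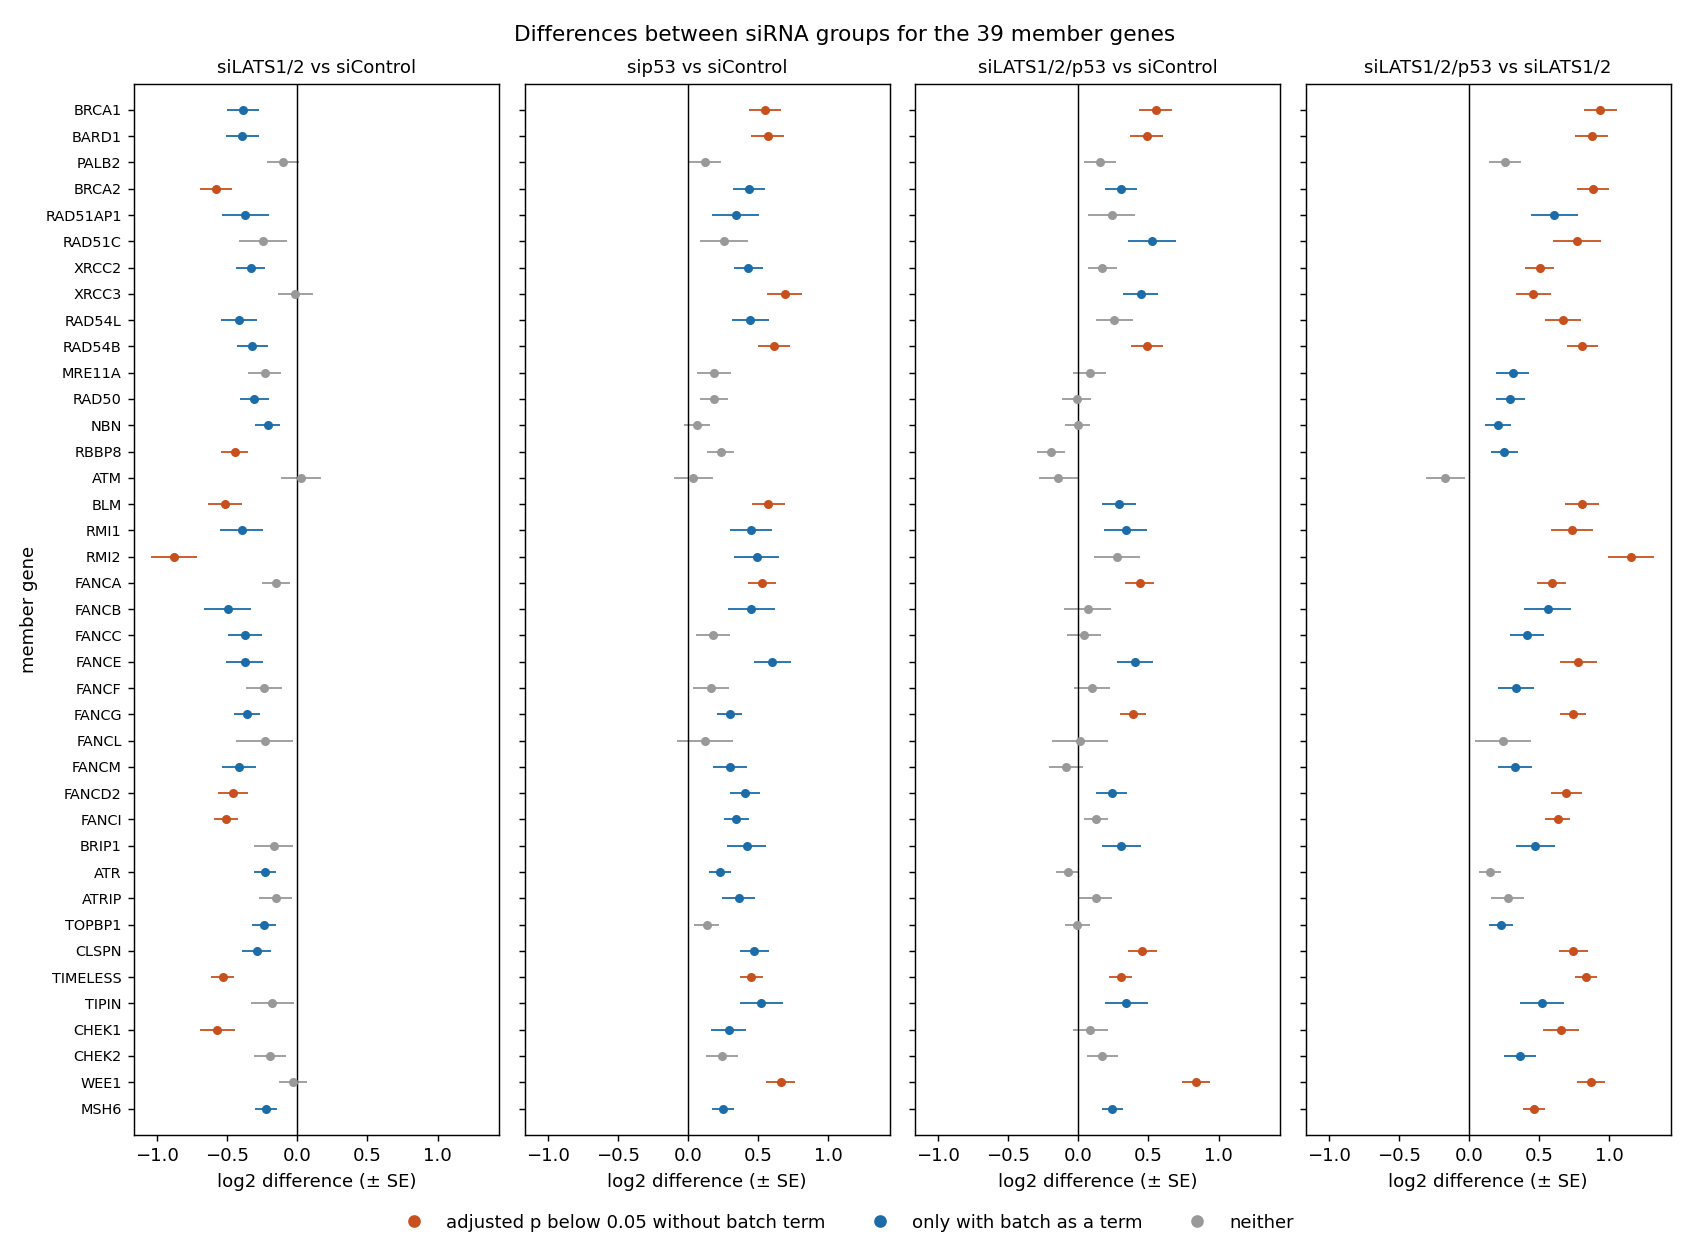
Points give the log2 difference of each of the 39 genes in 4 comparisons, with bars of 1 SE; orange points passed an adjusted p of 0.05 without the batch term, blue points only with it, grey points neither. The points lie left of 0 for 38 genes in siLATS1/2 against siControl and right of 0 for 38 genes in siLATS1/2/p53 against siLATS1/2.

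The 5 proliferation genes on the marker list, MKI67, TOP2A, PCNA, CCNB1 and CDK1, were lowest in siLATS1/2 and highest in sip53 when added up. They had a summed linear level of 37760 to 41900 in siControl, 30780 to 32050 in siLATS1/2, 53810 to 53910 in sip53 and 46010 to 48220 in siLATS1/2/p53. In siLATS1/2/p53 against siLATS1/2 all 5 rose, by 0.48 to 0.71. With siLATS1/2, TOP2A, PCNA and CCNB1 fell by 0.40 to 0.49 on the log2 scale, while MKI67 (−0.23 ± 0.09) and CDK1 (−0.44 ± 0.13) passed only with the batch term. With sip53 MKI67 passed without the batch term (0.52 ± 0.09), and the other 4, at 0.26 to 0.42, passed only with it. In siLATS1/2/p53 against siControl the 5 gave 0.08 to 0.28. None of them passed there without the batch term, and all but PCNA passed with it. The part of cycling cells in the differences of the 39 genes was not tested.

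Of the 10 genes of the BRCA1 complexes and strand exchange, 8 rose in siLATS1/2/p53 against siLATS1/2, with a median difference of 0.72. BRCA1 stood at 10.54 and 10.24 in the siControl libraries of batch 1 and 2, 10.01 and 9.99 in siLATS1/2, 11.00 and 10.88 in sip53, and 11.00 and 10.88 in siLATS1/2/p53. The last 2 groups interleaved, and both lay above all other libraries. Its difference of 0.94 gave an adjusted p of 0.0061 (limma), whereas its difference of −0.39 ± 0.12 with siLATS1/2 passed only with batch as a term (adjusted p = 0.088 without it and 0.0031 with it). BARD1, which forms the ubiquitin ligase with BRCA1, followed the same order, at 8.23 and 8.07, then 7.77 and 7.74, 8.71 and 8.73, and 8.66 and 8.61 in the same libraries. Both of its sip53 libraries were the highest of the 8 and its siLATS1/2 libraries the lowest.

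BRCA2, which carries the recombinase to single-stranded DNA, stood at 10.02 and 9.91 in siControl, 9.30 and 9.47 in siLATS1/2, 10.28 and 10.51 in sip53, and 10.26 and 10.28 in siLATS1/2/p53. It fell with siLATS1/2 (adjusted p = 0.029, limma) and rose when p53 was also depleted (adjusted p = 0.0064), and its sip53 and siLATS1/2/p53 libraries overlapped. PALB2, the bridge between BRCA1 and BRCA2, moved least of the 10. Its values ran from 9.26 to 9.67 over the 8 libraries, its largest difference was 0.26 ± 0.11, and it passed in no comparison with or without the batch term.

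XRCC3, a recombinase paralogue, stood at 9.16 and 9.12 in siControl, 9.22 and 9.04 in siLATS1/2, 9.89 and 9.78 in sip53, and 9.46 and 9.72 in siLATS1/2/p53. The control and siLATS1/2 libraries overlapped, with a difference of −0.01 ± 0.13. Its rise with sip53 passed (adjusted p = 0.036), and its 0.46 ± 0.13 in siLATS1/2/p53 against siLATS1/2 passed narrowly (adjusted p = 0.0499). An exon of XRCC3 overlaps KLC1 on the other strand, and the kit does not mark strand. KLC1 differed by −0.21 ± 0.09 with sip53, and the share of reads from it in the XRCC3 value was not tested.

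RAD54B, a motor protein of strand exchange, stood at 8.97 and 8.93 in siControl, 8.56 and 8.71 in siLATS1/2, 9.52 and 9.62 in sip53, and 9.37 and 9.52 in siLATS1/2/p53. It lay above control in all 4 libraries with the p53 siRNA and below it in both siLATS1/2 libraries. An exon of RAD54B overlaps FSBP on the same strand, and the share of reads from FSBP in the RAD54B value was not tested. RAD54L, a relative of RAD54B, rose by 0.67 ± 0.13 in siLATS1/2/p53 against siLATS1/2, while LRRC41, which overlaps RAD54L on the other strand, differed by 0.04 ± 0.09. The paralogues RAD51C (0.77 ± 0.17) and XRCC2 (0.50 ± 0.10) rose in the same comparison, and RAD51AP1, which helps the recombinase pair DNA strands, missed the threshold at 0.61 ± 0.17 (adjusted p = 0.0507 without the batch term and 0.00041 with it). RAD51C is one of the 4 genes highest in siLATS1/2/p53, but its libraries there, 9.25 and 8.80, were far apart and did not all clear the sip53 value of 8.83.

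The 5 genes of break sensing and end resection had the smallest median difference of the 7 roles in siLATS1/2/p53 against siLATS1/2 (0.25). Without the batch term none of the 5 passed in siLATS1/2/p53 against siLATS1/2 or in either comparison of a p53 siRNA group with siControl. Of all tested entries 11.3% were called higher against siLATS1/2, and 1.76% (sip53) and 9.07% (combined) against siControl. With 5 genes, 0 calls cannot be told apart from these shares. With the batch term 4 of the 5, all but ATM, were higher against siLATS1/2, beside 33.8% of all entries. ATM, the kinase that answers double-strand breaks, stood at 11.60 and 11.43 in siControl, 11.49 and 11.60 in siLATS1/2, 11.38 and 11.73 in sip53, and 11.26 and 11.50 in siLATS1/2/p53. All 4 groups overlapped, no comparison passed with or without the batch term, and it was the only gene below 0 (−0.17 ± 0.14) in siLATS1/2/p53 against siLATS1/2. After rescaling together with the batch term that difference was −0.32 with an adjusted p of 0.035 (limma). Exons of ATM overlap C11orf65 and NPAT on the other strand, and the share of reads from these genes in the ATM value was not tested.

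RBBP8, which starts resection, stood at 11.09 and 11.04 in siControl, 10.56 and 10.68 in siLATS1/2, 11.32 and 11.28 in sip53, and 10.98 and 10.76 in siLATS1/2/p53. Both combined libraries lay below both control libraries, and the 2 sip53 libraries above all others. It fell with siLATS1/2 by 0.45 ± 0.10, and its value of −0.43 ± 0.10 in siLATS1/2/p53 against sip53 was nearly as large. The latter had an adjusted p (limma) of 0.064 without the batch term, 0.0023 with it and 0.044 after rescaling without it. In siLATS1/2/p53 against siLATS1/2 RBBP8 gave 0.25 ± 0.10, which passed only with the batch term (adjusted p = 0.12 without it and 0.025 with it, limma). MRE11A, RAD50 and NBN, the 3 subunits of the break-sensing complex, differed by −0.31 to −0.21 with siLATS1/2 and by 0.21 to 0.31 in siLATS1/2/p53 against siLATS1/2, and by −0.01 to 0.08 in the combined group against siControl. Those between the combined and the siLATS1/2 group passed only with the batch term.

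All 3 genes of junction dissolution rose in siLATS1/2/p53 against siLATS1/2, with a median of 0.81. RMI2 stood at 7.57 and 7.28 in siControl, 6.49 and 6.60 in siLATS1/2, 8.04 and 7.79 in sip53, and 7.74 and 7.66 in siLATS1/2/p53. The siLATS1/2 libraries lay below every other library, and RMI2 gave the largest difference of the set in both comparisons with siLATS1/2 (adjusted p = 0.024 for the fall and 0.0073 for the rise, limma). The helicase BLM stood at 9.51 and 9.40 in siControl, 8.84 and 9.03 in siLATS1/2, 10.02 and 10.03 in sip53, and 9.85 and 9.63 in siLATS1/2/p53. Its groups did not overlap and followed the same order as those of RMI2, and both its fall with siLATS1/2 and its rise with sip53 passed. RMI1, the scaffold of the complex, rose by 0.74 ± 0.15 in siLATS1/2/p53 against siLATS1/2.

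In the Fanconi core complex, 3 of 8 genes rose in siLATS1/2/p53 against siLATS1/2: FANCE by 0.78 ± 0.13, FANCG by 0.75 ± 0.09 and FANCA by 0.59 ± 0.10. FANCA stood at 10.56 and 10.41 in siControl, 10.38 and 10.28 in siLATS1/2, 10.99 and 11.04 in sip53, and 10.82 and 11.02 in siLATS1/2/p53. All 4 libraries with the p53 siRNA lay above all 4 without it, while the siControl and siLATS1/2 libraries were close and did not overlap. FANCA overlaps ZNF276 on the other strand, which differed by −0.29 ± 0.10 in that comparison. FANCG, a scaffold of the core complex, stood at 9.44 and 9.42 in siControl, 9.07 and 9.08 in siLATS1/2, 9.68 and 9.77 in sip53, and 9.79 and 9.85 in siLATS1/2/p53. Its replicates were close, with an SD of 0.004 to 0.06 in the 4 groups, and the combined libraries were the highest, though the gap to sip53 of 0.09 ± 0.09 did not pass.

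The other core genes did not pass in any comparison without the batch term. FANCB, FANCC, FANCF, FANCL and FANCM, where FANCL is the ubiquitin ligase and FANCM the DNA translocase, differed by −0.50 to −0.23 with siLATS1/2 and by 0.25 to 0.56 in siLATS1/2/p53 against siLATS1/2. FANCM stood slightly below control in the combined group (−0.09 ± 0.12), and its −0.39 ± 0.12 against sip53 passed with the batch term (adjusted p = 0.010). FANCC, whose promoter holds both kinds of element, gave 0.41 ± 0.12 in siLATS1/2/p53 against siLATS1/2 (adjusted p = 0.062 without the batch term and 0.010 with it).

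The pair that the core complex modifies moved together. FANCD2 stood at 10.68 and 10.43 in siControl, 10.14 and 10.04 in siLATS1/2, 10.99 and 10.93 in sip53, and 10.86 and 10.71 in siLATS1/2/p53. FANCI stood at 11.73 and 11.56, then 11.09 and 11.18, 11.99 and 12.00, and 11.78 and 11.76 in the same libraries. In both genes the 4 groups were fully separate, in the order siLATS1/2, siControl, siLATS1/2/p53 and sip53. Both fell with siLATS1/2 and rose in siLATS1/2/p53 against siLATS1/2, FANCD2 by 0.70 ± 0.11 and FANCI by 0.63 ± 0.09, and for both the rise with sip53 passed only with the batch term. FANCI overlaps POLG on the other strand, which differed by 0.27 ± 0.10 and did not pass, and FANCD2 has a pseudogene copy that could share its reads. The helicase BRIP1, a partner of BRCA1, gave 0.47 ± 0.14, which passed only with the batch term.

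**Figure D3:**
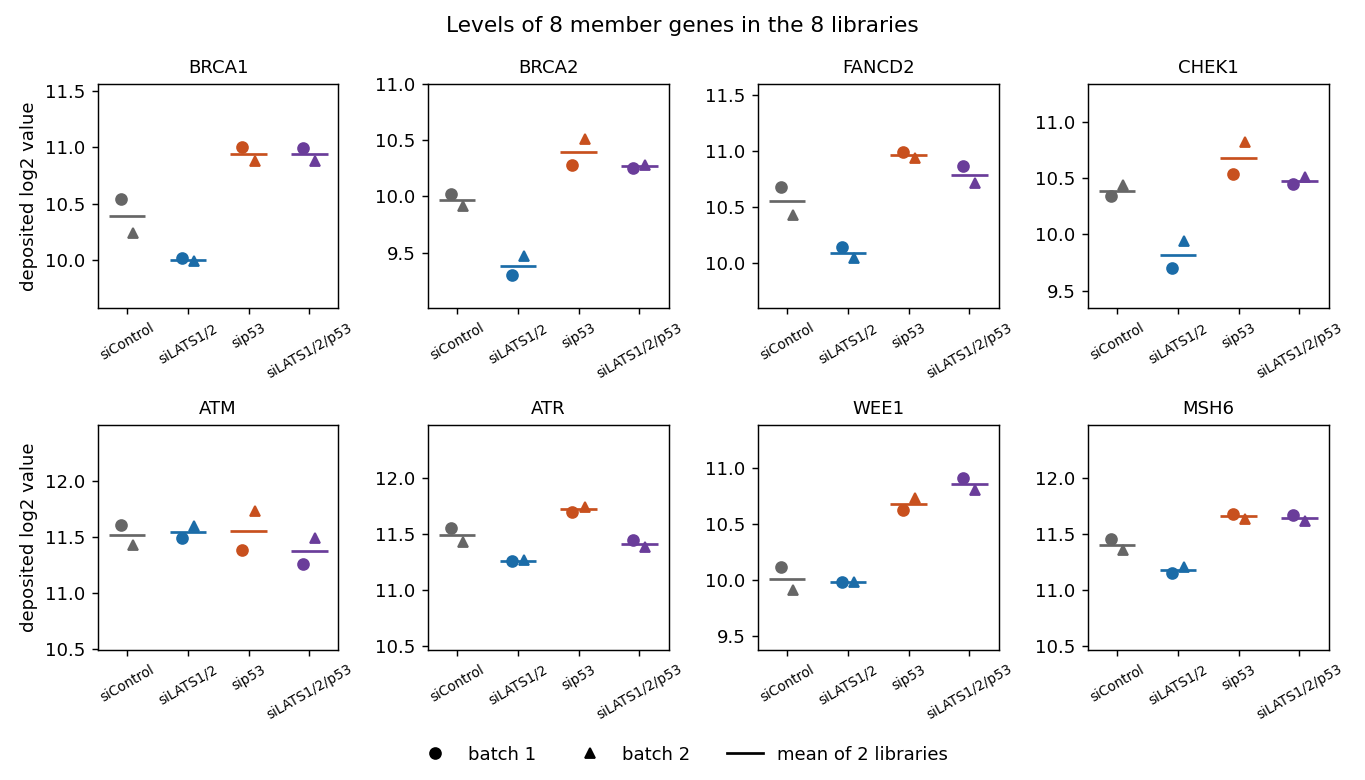
Deposited log2 values of 8 genes in each library, with circles for batch 1, triangles for batch 2 and a line at the mean of the 2; every panel spans 2 log2 units. BRCA1, BRCA2, FANCD2 and CHEK1 are lowest in siLATS1/2, WEE1 is level in siControl and siLATS1/2 and higher in both groups with the p53 siRNA, and the 4 groups overlap for ATM.

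Of the 9 replication checkpoint genes 4 rose in siLATS1/2/p53 against siLATS1/2, namely WEE1, TIMELESS, CLSPN and CHEK1, with a median difference of 0.52 over the 9. TIMELESS, which holds the replication fork together with TIPIN, stood at 10.97 and 10.90 in siControl, 10.44 and 10.36 in siLATS1/2, 11.43 and 11.34 in sip53, and 11.24 and 11.22 in siLATS1/2/p53. The groups were fully separate, and its differences of −0.53 with siLATS1/2, 0.45 with sip53, 0.30 in the combined group and 0.83 in that group against siLATS1/2 all passed. The last had the smallest adjusted p of the 39 genes in that comparison (0.0048, limma). CLSPN, the adaptor between ATR and CHEK1, stood at 9.96 and 10.14 in siControl, 9.69 and 9.83 in siLATS1/2, 10.45 and 10.59 in sip53, and 10.49 and 10.52 in siLATS1/2/p53. The sip53 and combined libraries interleaved above the rest, and CLSPN rose by 0.75 ± 0.10 against siLATS1/2.

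CHEK1, the effector kinase, stood at 10.34 and 10.44 in siControl, 9.70 and 9.94 in siLATS1/2, 10.54 and 10.82 in sip53, and 10.45 and 10.51 in siLATS1/2/p53. It fell with siLATS1/2 and rose by 0.66 ± 0.13 against siLATS1/2 when p53 was also depleted, to a level 0.09 ± 0.13 from control. An exon of CHEK1 overlaps STT3A on the same strand, and STT3A differed by 0.17 ± 0.10 in that comparison. CHEK2, the effector of ATM, passed in no comparison without the batch term, at −0.19 ± 0.11 with siLATS1/2 and 0.37 ± 0.11 in siLATS1/2/p53 against siLATS1/2. It has several pseudogene copies, so that its value is less certain.

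WEE1, which restrains entry into mitosis, stood at 10.11 and 9.91 in siControl, 9.98 and 9.98 in siLATS1/2, 10.62 and 10.73 in sip53, and 10.91 and 10.80 in siLATS1/2/p53. The siLATS1/2 libraries lay between the 2 controls (−0.03 ± 0.10), while the 4 libraries with the p53 siRNA lay above all others and the combined ones highest. It rose with sip53 (adjusted p = 0.026) and in the combined group against siControl (adjusted p = 0.0033), the smallest adjusted p of the set in either comparison.

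The apical kinase ATR stood at 11.55 and 11.43 in siControl, 11.26 and 11.27 in siLATS1/2, 11.70 and 11.74 in sip53, and 11.44 and 11.38 in siLATS1/2/p53. The combined libraries reached into the control range and were clear of sip53. ATR gave 0.15 ± 0.08 in siLATS1/2/p53 against siLATS1/2, which did not pass in either fit, and −0.31 ± 0.08 against sip53, which passed with the batch term (adjusted p = 0.091 without it and 0.0069 with it). Its partner ATRIP (0.28 ± 0.12) and its activator TOPBP1 (0.23 ± 0.09) did not pass against siLATS1/2 without the batch term. An exon of ATRIP overlaps TREX1 on the same strand, so its values are less certain. TIPIN gave 0.52 ± 0.15, which passed only with the batch term.

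MSH6, which recognises mismatches, stood at 11.45 and 11.35 in siControl, 11.15 and 11.21 in siLATS1/2, 11.67 and 11.64 in sip53, and 11.67 and 11.62 in siLATS1/2/p53. The sip53 and combined libraries interleaved, above control, and siLATS1/2 lay below. MSH6 rose by 0.47 ± 0.08 in siLATS1/2/p53 against siLATS1/2 (adjusted p = 0.012), and its differences from siControl of −0.22 to 0.25 passed only with the batch term. It overlaps FBXO11 on the other strand, which gave 0.23 ± 0.11 and did not pass.

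The LATS1/2 siRNAs were also compared in cells that all received the p53 siRNA, a comparison that shares no library with siLATS1/2 against siControl. Between siLATS1/2/p53 and sip53 no gene passed (0 of 39, beside 1.12% of all tested entries called lower). At an unadjusted p below 0.05, 6 genes were lower, and the share of all entries at that unadjusted p was not computed. With batch as a term 4 were lower, RBBP8, FANCM, ATR and FANCI, which is 10.3% of the genes beside 9.42% of all entries, a share near the background. The median difference was −0.14 over the 39 genes and 0.01 over all tested entries. Of the 39 genes 35 were below 0, 30 of them in both batches, where 52.2% of all entries were above 0. Without the p53 siRNA the median over the 39 genes was −0.32. BRCA1 differed by less than 0.01, with an SE of 0.12.

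Whether the LATS1/2 difference itself changed with the p53 siRNA was tested as an interaction. No gene passed (0 of 39, beside 0% of all tested entries higher), with 6 above 0 at an unadjusted p below 0.05. The share of all entries at that unadjusted p was not computed. With batch as a term no gene passed either, beside 1.75% of entries higher, and the smallest adjusted p was 0.068, for TIMELESS. The median interaction was 0.18 over the 39 genes and 0.10 over all entries. Of the 39 genes 34 were above 0, beside 66.9% of all entries, and 29 were after rescaling. RMI2 gave the largest value, 0.67 ± 0.23, followed by RAD51C at 0.51 ± 0.24, while RBBP8 (0.02 ± 0.14), FANCM (0.03 ± 0.17) and TIPIN gave values near 0. A smaller fall under the p53 siRNA was not shown for any single gene.

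**Figure D4:**
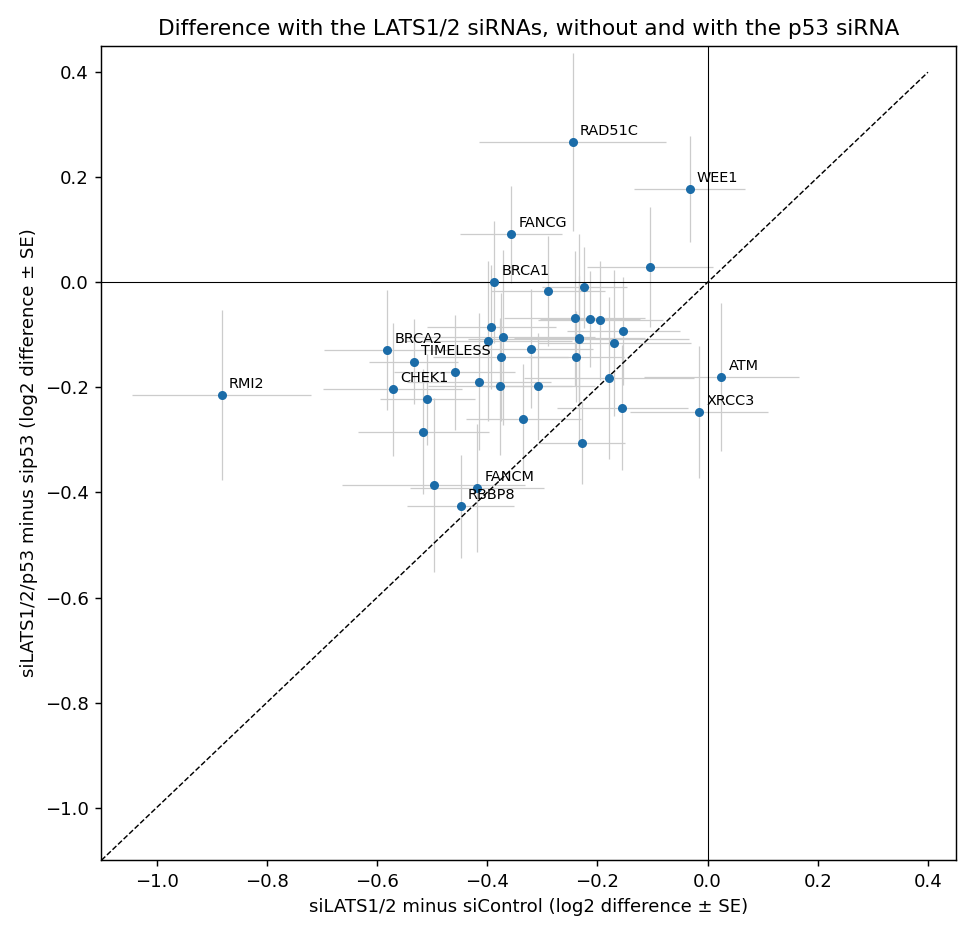
Each point is 1 of the 39 genes, with the log2 difference of siLATS1/2 against siControl on the horizontal axis and of siLATS1/2/p53 against sip53 on the vertical axis, and bars of 1 SE; the dashed line marks equal differences. RMI2 lies far left of the line, RBBP8 and FANCM lie on it, and BRCA1 lies at −0.39 and 0.

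Other genes of these pathways were taken as 8 lists with 110 genes, of which 97 were tested. In siLATS1/2/p53 against siLATS1/2, 37 of the 97 rose and 1 fell (beside 11.3% of all tested entries called higher), with a median difference of 0.35. With siLATS1/2 alone 10 fell (beside 4.89% of all tested entries called lower) and 1 rose. With sip53 8 rose (beside 1.76% called higher) and none fell. Checkpoint effectors held the most risers, 9 of 13, among them WDHD1, a replisome adaptor (1.05 ± 0.11), the mitotic kinase PLK1 (0.83 ± 0.10) and the phosphatase CDC25B, which counters WEE1 (0.67 ± 0.09). In the list of other Fanconi genes 7 of 15 rose, including UBE2T, the enzyme that passes ubiquitin to the FANCD2 and FANCI pair (0.81 ± 0.10), RFWD3 (0.49 ± 0.08) and UHRF1 (0.60 ± 0.11).

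Of the single-strand binding and clamp genes 3 of 8 rose, and these were the 3 subunits of RPA: RPA1 by 0.70 ± 0.08, RPA2 by 0.70 ± 0.12 and RPA3 by 0.92 ± 0.14. In the list of resection and junction resolution genes 5 of 13 rose, among them the polymerase POLQ (0.76 ± 0.10) and the nucleases DNA2 (0.84 ± 0.13) and EXO1 (0.59 ± 0.11). Recombination mediators gave 5 of 15, with MND1 at 1.00 ± 0.16, RAD51B at 0.91 ± 0.16 and MCM8 at 0.42 ± 0.10. Break signalling gave 3 of 14, the histone gene H2AFX (0.81 ± 0.12), MDC1 (0.37 ± 0.08) and BRE (0.56 ± 0.14). H2AFX was also the only one of the 97 to pass between siLATS1/2/p53 and sip53, where it was higher by 0.80. This is a smaller share than the 3.66% of all tested entries called there in either direction. With the batch term 4 of the 97 were higher and 10 lower, beside 22.1% of all entries in either direction. In siLATS1/2/p53 against siLATS1/2, end joining gave 5 of 14, among them PARP2 (0.87 ± 0.13) and PARP1 (0.53 ± 0.09). It also held the only gene of the 97 to fall there, LIG4, the ligase of end joining (−0.48 ± 0.09). No other mismatch repair gene passed of the 5 tested.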

How the data were processed

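Polyadenylated RNA of 8 MCF10A libraries, 2 per siRNA group, was analysed. The authors deposited log2 values, 1 per gene symbol and library, and the lowest value in every library was 5 (32 on the linear scale), a floor shared by many entries. TruSeq version 2 libraries, which do not keep strand, were made per the labels' protocols, and TopHat and hg19 were used per the submitters' processing notes. The sources used here do not name the counter, the annotation or the scaling. Depth was estimated from the spacing of low linear values, and whole reads could not be recovered, which kept count models out.

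A linear model over all 4 groups was fitted to the deposited log2 values in limma 3.58.1 (R 4.3.3), moderated with a trend on mean level. No pseudocount was added, since the values were logged and floored. An entry was tested if 2 or more libraries had it above the floor, which held for 12315 of 29991, with Benjamini-Hochberg adjustment over them and a threshold of 0.05 (called, or passed). SE values come from that fit. A second fit had the batch number as a term; the labels state that the 2 numbers are independent batches of cells, and same-numbered libraries correlated in their deviations. The fit without the batch term was run on simulated data for siLATS1/2 against siControl only. The simulated noise was independent in each library and did not hold the deviations shared by same-numbered libraries. Alternatives covered the filter, a pseudocount of 1 or 32, rescaling, the batch term, the groups fitted, the trend and left-out libraries.

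Library values were given for the 6 called genes of largest difference in each comparison and always for BRCA1, BRCA2, FANCD2, CHEK1, ATM, ATR, WEE1 and MSH6; other genes singled out, such as RBBP8 and FANCG, were chosen after their values were seen. Up to 3 genes of each other list were named by smallest p in siLATS1/2/p53 against siLATS1/2. The members and lists were chosen with earlier results of these data known. In the GENCODE annotation, used for names only, 25 of the 39 genes had an exon overlapping another gene, 19 of them one on the other strand. A named pseudogene was listed for 5 of the 39, CHEK2, FANCD2, MRE11A, RAD51AP1 and RBBP8. The transcript targeted by the p53 siRNA is not reported here.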

Additional observations from a re-analysis of the deposited data

How the results depend on the processing

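No called gene changed its direction under any alternative, but the number of calls did depend on the settings, with 2 libraries per group. For siLATS1/2 against siControl (8 calls) it was 0 without a filter on low values, 3 with rescaling, 26 with the replicate block, 14 with block and rescaling, 0 with only the groups compared, 4 without the trend and 0 without the 2 shallowest libraries. For sip53 against siControl (8 calls) the same settings gave 0, 3, 27, 18, 0, 5 and 0, and the block without the 2 shallowest libraries, added after seeing the data, gave 21. For siLATS1/2/p53 against siControl (8 calls) there were 1 without the filter, 2 with rescaling, 18 with the block, 1 with only the groups compared and 0 without the 2 shallowest libraries. For siLATS1/2/p53 against siLATS1/2 (21 calls) these settings gave 3 without the filter, 34 with the block, 0 with only the groups compared and 0 without the 2 shallowest libraries. For siLATS1/2/p53 against sip53 (0 calls) there were 1 with rescaling, 4 with the block, 5 with block and rescaling and 3 with the block without the 2 shallowest libraries. Leaving out 1 library at a time gave 0 to 4, 0 to 0, 1 to 2, 0 to 21 and 0 to 0 calls in these comparisons, in the order given. The interaction had 0 calls throughout. The cause of these changes was not tested. Some of the fits also differed from the main fit in the number of samples or of entries. The block lost none of the calls made without it. The share of all tested entries called in either direction moved with the settings as well. For siLATS1/2 against siControl it was 7.7% in the main fit and 0.147% without a filter on low values. It was 6.39% with rescaling, 32% with the block, 27.7% with block and rescaling and 0% with only the groups compared. For siLATS1/2/p53 against siLATS1/2 the same settings gave 14.5%, 0.624%, 9.78%, 43.5%, 33.7% and 0%. Differences below the floor of the deposited values could not be seen, but all 39 genes were above it.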
